A study of Mus musculus with 9 samples.

Results

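Synaptic vesicle and release machinery genes, 40 in number, were followed in the cerebellum of mice that model spinocerebellar ataxia type 3 (SCA3), a polyglutamine disease. They were chosen by symbol from the 37816 genes of the count table, all 40 were found there, and all 40 were among the 19353 genes with enough counts to be tested. The series holds 9 libraries, 3 in each of 3 groups, from mice of the C57BL/6 background at 18 months of age. In the 15Q group a YAC transgene (a large yeast-derived construct) carried human ATXN3 with 15 CAG repeats, and in the 84Q group the repeat of human ATXN3 was expanded to 84 CAG. The 84Q+IGF1 mice carried the 84-repeat transgene and received weekly intraperitoneal IGF-1 at 50 mg/kg from the age of 9 months to the harvest. According to the treatment protocol the other mice were injected with PBS, although their labels call them untreated. Every group therefore carried a human ATXN3 transgene, no group without one was included, and the effect of IGF-1 in 15Q mice was not measured. The 15Q and 84Q mice came from different sources, so that the repeat length and the line cannot be told apart. The study treats each RNA-seq profile as that of an individual mouse, so p-values measure the spread between mice within these lines.

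A synaptic vesicle filled with transmitter is tethered at the active zone, primed by Munc13 and RIM proteins, and fused with the membrane by SNARE proteins when synaptotagmins bind calcium. The vesicle SNARE synaptobrevin pairs with syntaxin and SNAP-25 on the plasma membrane, complexins hold the assembled complex, and NSF with its SNAP adaptors takes it apart for reuse. In the cerebellum these proteins serve the parallel fiber and climbing fiber inputs to Purkinje cells as well as inhibitory synapses. The transcripts of different neurons are mixed in this tissue, and in a bulk sample fewer cells of a type and less RNA per cell cannot be told apart.

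The promoter windows of 4 of these genes are shown here. Unc13a and Syp are members that passed a test below, Slc17a6 is a member with 1 library far below the other 8, and Syn1 shares a motif with Unc13a. Each window comes from RefSeq (GRCm38.p6), holds 300 bases, with 250 before the RefSeq start of the gene and 50 from it on, and is written from 5′ to 3′ on the strand of the gene. Capitals mark matches, on either strand, to the GC box GGGCGG, to TTCAGCACC and GGACAGC, the half-sites of the RE1 element that the repressor REST binds, and to the cyclic AMP response element TGACGTCA.
Unc13a: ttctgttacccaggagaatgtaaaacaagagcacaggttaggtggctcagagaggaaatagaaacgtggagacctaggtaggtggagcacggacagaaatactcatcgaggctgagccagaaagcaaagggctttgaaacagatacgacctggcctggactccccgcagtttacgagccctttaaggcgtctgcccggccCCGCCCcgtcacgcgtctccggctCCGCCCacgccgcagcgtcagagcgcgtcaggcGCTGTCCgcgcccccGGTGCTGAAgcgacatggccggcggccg
Syp: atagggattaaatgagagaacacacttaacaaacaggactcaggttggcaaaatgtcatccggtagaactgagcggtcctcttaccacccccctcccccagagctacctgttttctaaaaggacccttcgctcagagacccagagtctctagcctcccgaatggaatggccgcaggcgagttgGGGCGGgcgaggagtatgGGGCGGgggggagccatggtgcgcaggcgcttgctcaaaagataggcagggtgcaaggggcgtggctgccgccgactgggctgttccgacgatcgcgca
Syn1: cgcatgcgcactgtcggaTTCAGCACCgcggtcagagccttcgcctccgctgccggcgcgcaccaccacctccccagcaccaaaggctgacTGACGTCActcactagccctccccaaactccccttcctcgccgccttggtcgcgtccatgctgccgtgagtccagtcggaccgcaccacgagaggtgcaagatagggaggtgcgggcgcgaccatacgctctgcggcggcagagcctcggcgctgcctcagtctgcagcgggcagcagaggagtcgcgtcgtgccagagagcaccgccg
Slc17a6: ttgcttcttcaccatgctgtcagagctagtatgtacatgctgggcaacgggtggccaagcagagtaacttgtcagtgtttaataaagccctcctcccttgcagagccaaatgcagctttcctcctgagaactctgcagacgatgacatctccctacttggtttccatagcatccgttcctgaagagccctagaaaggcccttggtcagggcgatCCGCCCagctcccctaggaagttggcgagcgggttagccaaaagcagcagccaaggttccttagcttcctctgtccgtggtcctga

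These windows lie at chr8:71671708-71672007 on the minus strand for Unc13a, chrX:7638330-7638629 on the plus strand for Syp, chrX:20920869-20921168 on the minus strand for Syn1 and chr7:51621580-51621879 on the plus strand for Slc17a6. The starts of Unc13a and Syn1 coincide with a transcript start of GENCODE M21, from which the gene coordinates below are taken. For Slc17a6 the nearest such start lies 176 bases after that of RefSeq, so that its whole window lies before the gene coordinates given below, and for Syp these coordinates begin inside the window, before the RefSeq start. A GC box was found in 23 of the 31 members with a window, against 35.9% of 27025 windows of the same length over all genes. The longer half-site TTCAGCACC occurred in 0.37% of all windows, and among the members it occurred in Unc13a and Syn1. The Unc13a window also held GGACAGC, found in 6.58% of all windows, on the same strand and 8 bases from the first half-site. TGACGTCA was present in Syn1 and Napa and in 1.85% of all windows. The median GC content was 62.3% in the 31 members and 52.7% over all genes. Syngr3, a member described below, is among the 9 members without an entry.

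Between 17482654 and 58269196 counts per library fell on genes. Depth differed between groups, with medians of 40249019 counts in 15Q, 22808219 in 84Q and 26914560 in 84Q+IGF1 and with overlapping ranges. The part of depth in the comparisons with 15Q was not tested. A floor of 3 counts corresponded to 0.0515 to 0.172 CPM, a unit that scales counts to the library total after adjustment by the TMM method. This limit covers counting error only. Markers of cerebellar neurons were present in every library, with summed levels between 7022 and 8140 CPM for 12 granule cell genes and between 7731 and 8670.3 CPM for 11 Purkinje cell genes, and the groups overlapped in both. Libraries differed in 2 further respects within groups. The summed level of 12 choroid plexus markers was between 30.1 and 72.2 CPM in 6 libraries and between 521 and 1091 CPM in the remaining 3, which were the first and the third 15Q library and 84Q replicate 2. In 84Q+IGF1 against 15Q, 11 of these 12 markers had an unadjusted p under 0.05 and 0 an adjusted p under 0.1, with a median log2 fold change of -3.45, so that this signal was unevenly spread over the groups. Xist, transcribed from the inactive X chromosome of females, was between 719 and 949 CPM in 4 libraries (the second and the third 15Q library, the first 84Q library and 84Q+IGF1 replicate 2) and at most 1.15 CPM in the other 5. Mouse Atxn3 lay between 25.1 and 30.2 CPM, and the human transgene was not analysed here.

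Levels between genes were compared as TPM, which divides the counts by the length of the exons. Together the 40 genes made up between 0.981% and 1.04% of all TPM in every library. Their summed level was 10304 ± 128 TPM in the 15Q group, 9962 ± 134 TPM in the 84Q group and 10200.0 ± 217 TPM in the 84Q+IGF1 group (SD, n = 3). The 84Q libraries all lay below the 15Q libraries in this sum, and the 84Q+IGF1 libraries overlapped both groups. This depended on the unit, since the summed CPM of the 84Q libraries, between 14911 and 15315, overlapped that of the 15Q libraries, between 15196 and 15550.2, as it did with DESeq2 size factors. Snap25 was the most abundant member at 1635 ± 76.6 TPM (SD, n = 9), followed by Cplx2 at 803 ± 90.9 TPM and Cplx1 at 718 ± 31.1 TPM. The spreads of Cplx2 and Cplx1 overlapped. At the low end, Doc2a stood at 0.446 ± 0.261 TPM, Cplx3 at 1.47 ± 0.192 TPM, Stx1a at 2.96 ± 0.947 TPM, Unc13b at 3.36 ± 0.389 TPM and Syn3 at 5.32 ± 0.818 TPM.

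**Figure D1:**
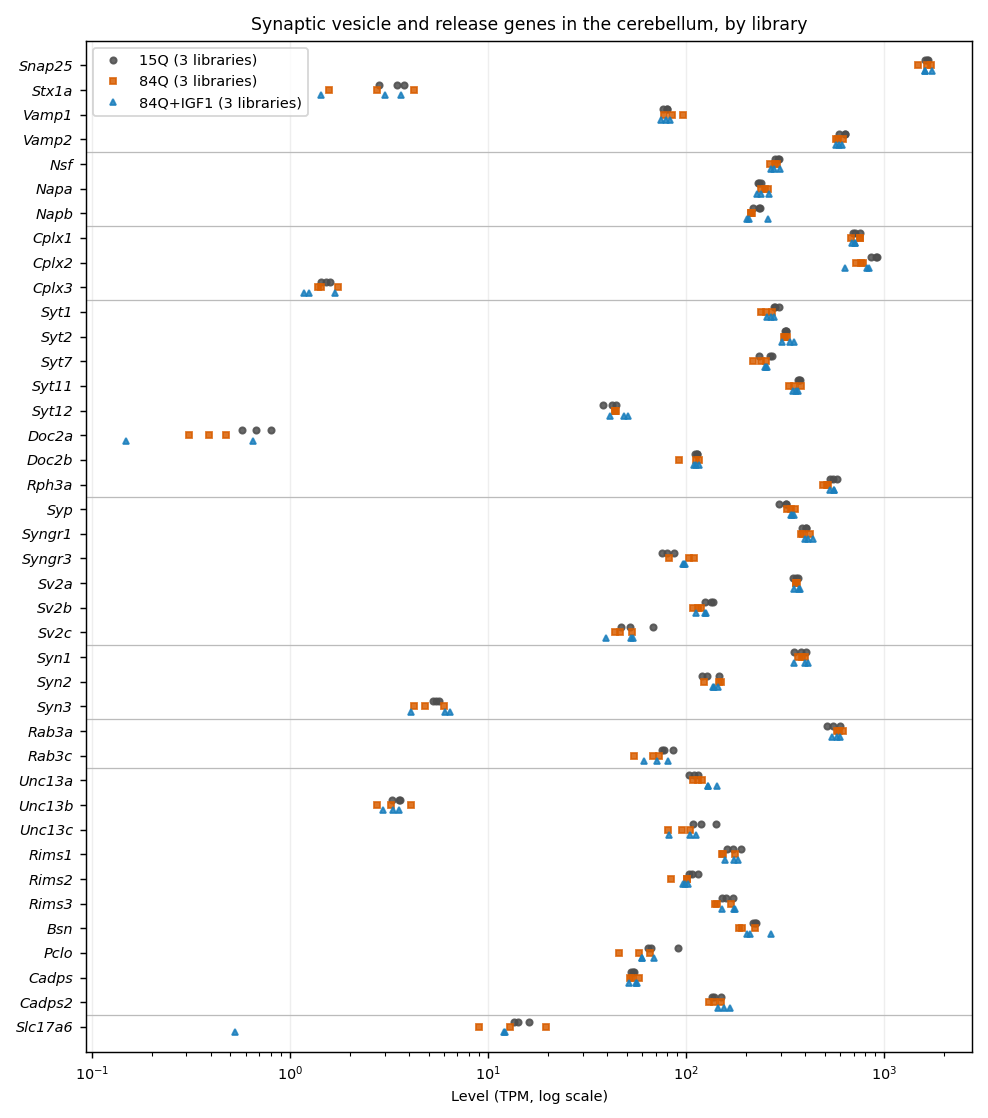
The level of each of the 40 genes in TPM, on a log scale, with 1 point per library and the groups set apart by symbol and colour. Grey lines part the roles, Doc2a in 84Q+IGF1 replicate 1 is at 0 and has no point, and the libraries of Slc17a6, Doc2a and Stx1a lie farthest apart, within a range of means from Doc2a at 0.446 TPM to Snap25 at 1635 TPM.

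To ask whether the expanded transgene or IGF-1 changed these genes, the groups were compared with edgeR's quasi-likelihood test in a single fit to all 9 libraries, with Benjamini-Hochberg adjustment over the 19353 genes tested. Every adjusted p given for a gene comes from this test unless another is named. The comparisons of 84Q and of 84Q+IGF1 with 15Q share the 15Q libraries. None of the 40 genes met the study's threshold, an adjusted p under 0.1 with a fold change of at least 1.5, in any comparison, by edgeR or by the DESeq2 Wald test. Over all genes tested, this threshold called 2.14% in 84Q against 15Q, 2.25% in 84Q+IGF1 against 15Q, 0% in 84Q+IGF1 against 84Q and 3.51% when both 84Q groups were set together against 15Q. At an unadjusted p under 0.05, edgeR counted 7 members in 84Q against 15Q, 6 in 84Q+IGF1 against 15Q, 1 in 84Q+IGF1 against 84Q and 9 in both groups against 15Q. The shares of all genes at that level were 19.4%, 17.7%, 4.68% and 22.6%, in the same order.

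With no minimum fold change, an adjusted p under 0.1 was reached by 0 members in 84Q against 15Q, where 1.54% of all genes were called higher and 3.25% lower. The DESeq2 Wald test called 3 members there and 6.3% of all genes to which it gave an adjusted p. In 84Q+IGF1 against 15Q, 1 member was higher (Unc13a) and 0 were lower, against 1.04% and 2.63% of all genes. Between the 84Q+IGF1 and 84Q groups, 0 members were called, and 0% of all genes were called higher and 0% lower, and DESeq2 called 0 members and 0.0185% of all genes. With both 84Q groups against 15Q, 3 members were higher (Unc13a, Syp and Syngr3) and 0 lower, against 3.64% and 6.11% of all genes. DESeq2 called 4 members there, where it called 9.19% of all genes. The median log2 fold change of the 40 genes was -0.01, 0.01, 0.01 and -0.02 in the 4 comparisons, and that of all genes tested was between -0.01 and 0.00.

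The intervals show how large a difference could have been missed. In 84Q against 15Q, the 95% interval of 35 of the 40 genes lay within a 1.5-fold change in either direction, a share that was 63.3% over all genes tested. For 84Q+IGF1 this held for 36 genes against 15Q and for 36 against 84Q, where 63.9% and 66.2% of all genes did so. The genes with a wider interval in 84Q against 15Q were Stx1a, Doc2a and Slc17a6, which had few counts or 1 library far from the others, and Unc13c and Pclo, whose intervals reached -0.60 and -0.64 on the log2 scale. The CPM ranges of the groups did not overlap for 12 members in 84Q against 15Q, 6 of them higher (Napa, Syt2, Syt12, Syp, Sv2a and Unc13a) and 6 lower (Cplx2, Syt1, Doc2a, Sv2b, Rab3c and Unc13c), where 25.4% of all genes showed this. In 84Q+IGF1 against 15Q, 5 members did not overlap, 3 higher (Unc13a, Syp and Syngr3) and 2 lower (Rims2 and Slc17a6), against 24.7% of all genes. In 84Q+IGF1 against 84Q, 2 members (Unc13a and Rph3a) did not overlap, against 8.46% of all genes. With both 84Q groups against 15Q, 2 members (Unc13a and Syp) did not overlap, against 12.3% of all genes.

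**Figure D2:**
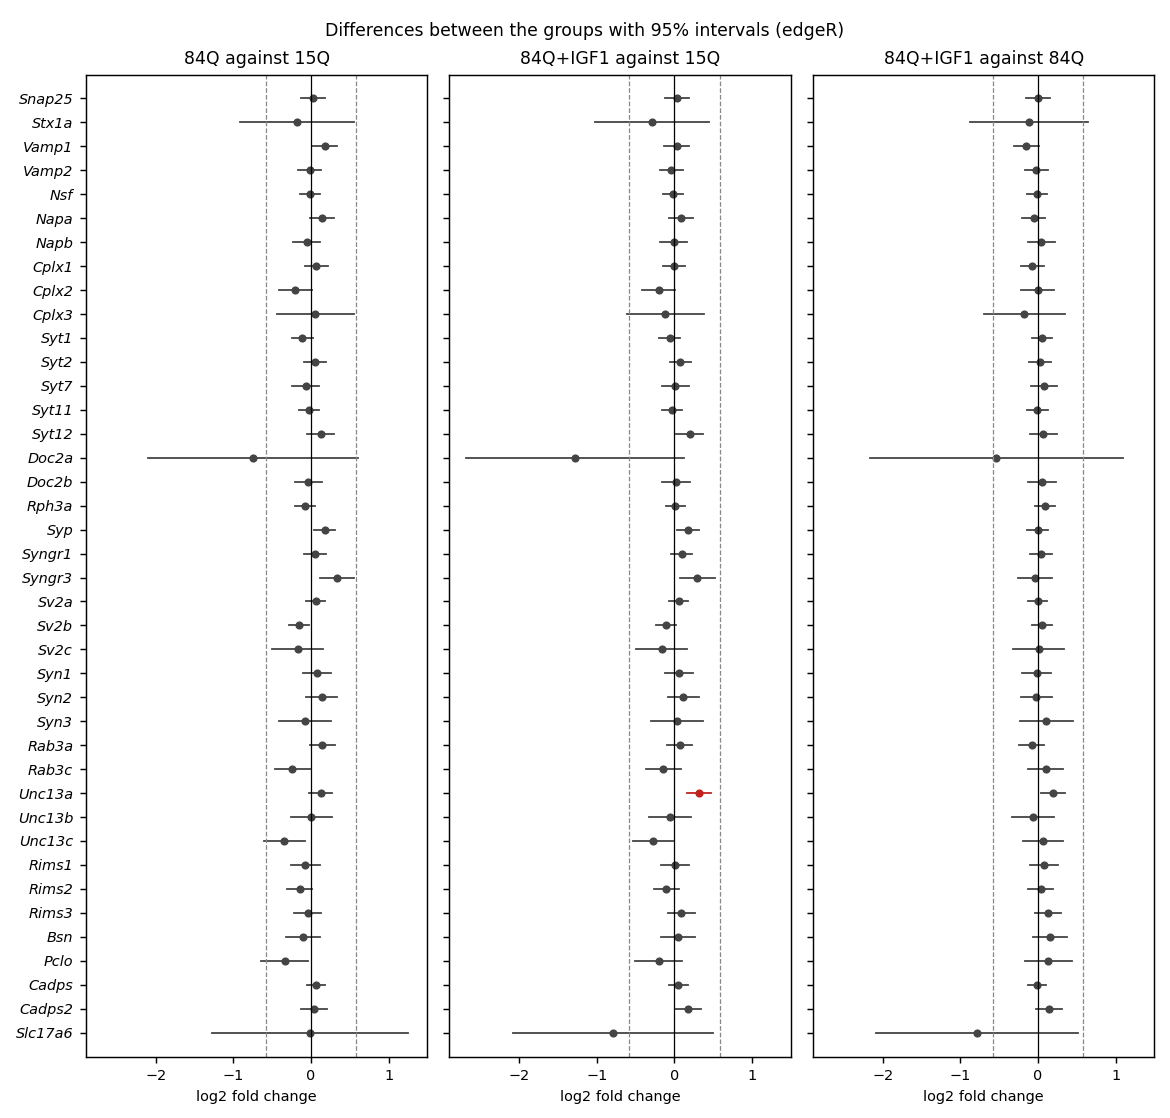
The log2 fold change of each gene in 3 comparisons, with the 95% interval as a bar, 0 as a solid line and a 1.5-fold change in either direction as dashed lines. Unc13a in 84Q+IGF1 against 15Q, in red, is the single value with an adjusted p under 0.1, and the intervals of Doc2a, Slc17a6 and Stx1a are the widest.

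Unc13a (ENSMUSG00000034799.16, chromosome 8, 71624417 to 71671757) encodes Munc13-1, which opens syntaxin so that vesicles become ready for release. It stood at 323, 342 and 351 CPM in the 15Q libraries, at 386, 368 and 352 CPM in the 84Q libraries and at 463, 406 and 399 CPM in the 84Q+IGF1 libraries. All 84Q libraries lay above all 15Q libraries, the nearest by under 1 CPM, and all 84Q+IGF1 libraries lay above both other groups. Unc13a was upregulated in 84Q+IGF1 against 15Q, with a log2 fold change of 0.32 (SE 0.07, adjusted p = 0.0416). Compared with 15Q, the log2 fold change in the 84Q group was 0.12 (95% interval -0.03 to 0.27, adjusted p = 0.36). In 84Q+IGF1 against 84Q it was 0.20 (95% interval 0.05 to 0.35), with an unadjusted p of 0.0154 and an adjusted p of 0.969. With both 84Q groups together it was 0.22 (SE 0.06, adjusted p = 0.0635).

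The call in 84Q+IGF1 against 15Q was lost without 15Q replicate 2 (adjusted p = 0.135, log2 fold change 0.33) and without 84Q+IGF1 replicate 1 (adjusted p = 0.135, log2 fold change 0.25). It was also lost when the 3 libraries with choroid plexus markers were left out (0.32, adjusted p = 0.532), which leaves 15Q with 1 library that is assumed to vary like the other groups. With mean choroid plexus level as a covariate the log2 fold change was 0.30 (adjusted p = 0.273), and with the replicate number as a block it was 0.32 (adjusted p = 0.107). The call over both groups was lost without any 1 of the 15Q libraries (adjusted p between 0.151 and 0.188, log2 fold change between 0.19 and 0.25). Colgalt1 overlaps 3.92% of the exon length of Unc13a on the opposite strand, and since the strand setting of the counting is not given in the sources used here, reads there cannot be told apart.

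The other Munc13 genes did not follow Unc13a. Unc13c, which is expressed by granule cells and encodes Munc13-3, stood at 236, 258 and 303 CPM in the 15Q libraries, at 233, 213 and 182 CPM in the 84Q libraries and at 186, 244 and 227 CPM in the 84Q+IGF1 libraries. Its 84Q libraries lay below its 15Q libraries, and its 84Q+IGF1 libraries overlapped them. The log2 fold change was -0.34 in the 84Q group (SE 0.12, adjusted p = 0.154) and -0.28 in the 84Q+IGF1 group (SE 0.12, adjusted p = 0.247). With both groups together it was -0.31 (SE 0.10, adjusted p = 0.102). DESeq2 gave an adjusted p of 0.0809 in 84Q and of 0.049 over both groups. Unc13b, encoding Munc13-2, was low throughout, between 16.1 and 23.6 CPM.

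As a share of the TPM of the 3 Munc13 genes, a measure chosen after their values were seen, Unc13a made up between 44.0% and 48.0% in the 15Q libraries, between 52.8% and 56.5% in the 84Q libraries and between 52.9% and 62.6% in the 84Q+IGF1 libraries. The shares of the 15Q libraries thus lay apart from those of the other 6, and those of the 84Q and 84Q+IGF1 libraries overlapped. Unc13c made up between 50.3% and 54.6% in the 15Q libraries and between 36.1% and 45.7% in the others.

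**Figure D3:**
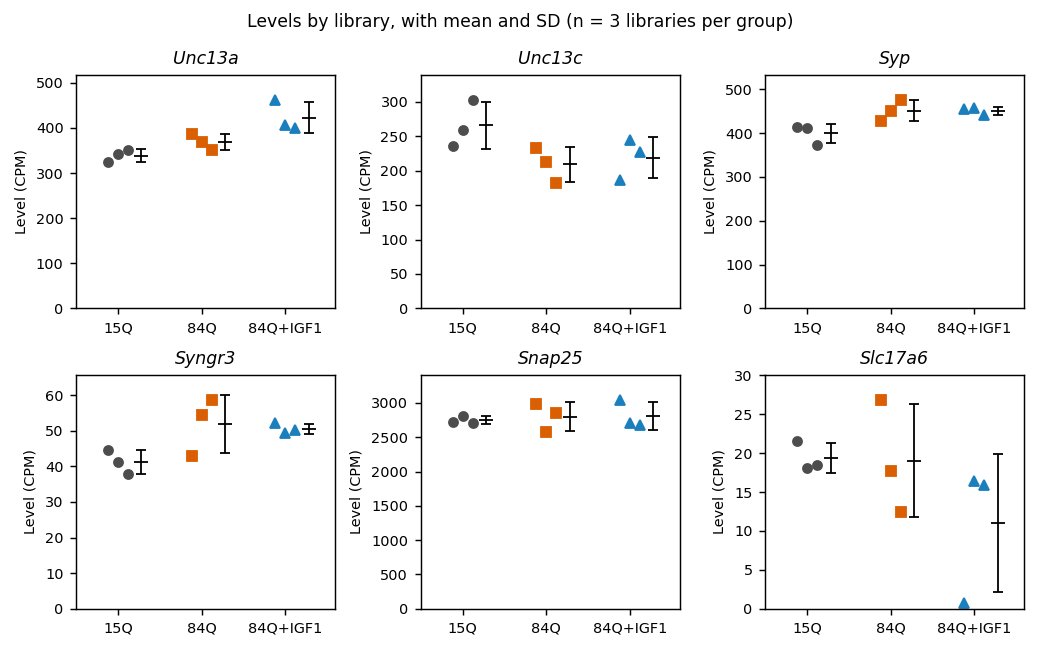
Levels in CPM of Unc13a, Unc13c, Syp, Syngr3, Snap25 and Slc17a6, with 1 point per library and the mean with its SD (n = 3) in black beside each group, on axes that start at 0. The 84Q+IGF1 libraries of Unc13a lie between 399 and 463 CPM and above the other groups, the groups of Snap25 overlap, and Slc17a6 falls to 0.729 CPM in 1 library of the 84Q+IGF1 group.

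Among the proteins of the vesicle membrane, Syp and Syngr3 were upregulated when both 84Q groups were compared with 15Q. Syp (ENSMUSG00000031144.15, chromosome X, 7638471 to 7653256) encodes synaptophysin, an abundant vesicle protein that binds synaptobrevin. Its levels were 413, 411 and 374 CPM in the 15Q libraries, 428, 449 and 476 CPM in the 84Q libraries and 455, 456 and 441 CPM in the 84Q+IGF1 libraries. Each library of the 84Q and 84Q+IGF1 groups lay above each 15Q library. The log2 fold change over both groups was 0.18 (SE 0.05, adjusted p = 0.0888), and it was 0.18 in 84Q (adjusted p = 0.16) and 0.17 in 84Q+IGF1 (adjusted p = 0.179).

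Syngr3 (ENSMUSG00000007021.5, chromosome 17, 24685092 to 24689955) encodes synaptogyrin-3, a relative of synaptophysin. It was measured at 44.6, 41.3 and 37.9 CPM in the 15Q libraries, at 42.9, 54.4 and 58.7 CPM in the 84Q libraries and at 52.0, 49.4 and 50.1 CPM in the 84Q+IGF1 libraries. The 84Q+IGF1 libraries lay above all 15Q libraries, whereas 84Q replicate 1 lay below 15Q replicate 1. Over both groups the log2 fold change was 0.31 (SE 0.09, adjusted p = 0.0685), with 0.33 in 84Q (adjusted p = 0.115) and 0.29 in 84Q+IGF1 (adjusted p = 0.167). DESeq2 called Syngr3 and Syp in each comparison with 15Q.

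Both calls were lost when some single libraries were left out. With both 84Q groups against 15Q, 9.75% of all genes were called with all 9 libraries. That share was 2.15% without 15Q replicate 2, 1.78% without 15Q replicate 3 and 6.26% without 84Q replicate 3. It was 6.82% without 84Q+IGF1 replicate 1 and 9.86% without 84Q+IGF1 replicate 2. The call of Syp was lost without 15Q replicate 2, 15Q replicate 3, 84Q replicate 3, 84Q+IGF1 replicate 1 or 84Q+IGF1 replicate 2 (adjusted p between 0.111 and 0.341), and that of Syngr3 without 15Q replicate 2, 15Q replicate 3, 84Q replicate 3 or 84Q+IGF1 replicate 1 (adjusted p between 0.107 and 0.287). With Xist as a covariate the log2 fold change was 0.15 for Syp (adjusted p = 0.179) and 0.23 for Syngr3 (adjusted p = 0.127). Over all alternatives it lay between 0.14 and 0.21 for Syp and between 0.23 and 0.38 for Syngr3. Without the 3 libraries with choroid plexus markers the adjusted p was 0.682 (log2 fold change 0.14) and 0.577 (log2 fold change 0.30). Among the libraries with Xist, Syngr3 was at 41.3 and 37.9 CPM in 15Q and at 42.9 and 49.4 CPM in the 84Q groups, and the libraries without Xist hold only 1 of the 15Q group. Gm14703 overlaps 16.8% of the exon length of Syp on the opposite strand, where reads cannot be told apart, and the share of such reads was not measured.

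The remaining vesicle membrane genes did not pass the test. Syngr1, encoding synaptogyrin-1, was at 481, 482 and 449 CPM in the 15Q libraries, at 464, 479 and 518 CPM in the 84Q libraries and at 508, 478 and 518 CPM in the 84Q+IGF1 libraries, and the groups overlapped. Sv2a, Sv2b and Sv2c encode transporter-like vesicle glycoproteins, and Sv2a made up between 64.5% and 69.8% of their TPM. Sv2b had a log2 fold change of -0.15 in 84Q against 15Q (SE 0.06, adjusted p = 0.186), with its 84Q libraries below its 15Q libraries. Sv2c ranged most widely of the 3, from 93.8 to 164 CPM.

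Of the SNARE genes, Snap25 and Vamp2 are given by library. Snap25 (ENSMUSG00000027273.13, chromosome 2, 136713453 to 136782428), the plasma membrane SNARE of neurons, stood at 2717, 2817 and 2710 CPM in the 15Q libraries, at 2978, 2571 and 2854 CPM in the 84Q libraries and at 3045, 2711 and 2680 CPM in the 84Q+IGF1 libraries. Its groups overlapped, and its log2 fold change was 0.03 in 84Q (95% interval -0.13 to 0.18) and 0.03 in 84Q+IGF1 (95% interval -0.12 to 0.19). Vamp2, encoding synaptobrevin-2, was at 602, 596 and 548 CPM in the 15Q libraries, at 548, 569 and 607 CPM in the 84Q libraries and at 601, 561 and 536 CPM in the 84Q+IGF1 libraries. These groups also overlapped, and the 95% interval of the log2 fold change in 84Q was -0.16 to 0.13.

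Vamp1, the other synaptobrevin, made up between 10.9% and 14.5% of the TPM of the pair. It had a log2 fold change of 0.18 in 84Q against 15Q (SE 0.07, adjusted p = 0.21), which was 0.10 without 84Q replicate 1 (adjusted p = 0.441) and 0.26 without 84Q replicate 2 (adjusted p = 0.0797). Stx1a, one of the syntaxins of the plasma membrane, had between 19 and 143 counts per library, and its 84Q libraries ranged from 1.08 to 2.86 CPM. Its 95% interval in 84Q ran from -0.91 to 0.56. Of the genes that recycle SNAREs, Nsf encodes the ATPase and had a log2 fold change of -0.01 in 84Q (95% interval -0.14 to 0.12). The adaptors Napa and Napb had log2 fold changes of 0.14 and -0.06 there, with adjusted p-values of 0.288 and 0.749.

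Complexins bind the assembled SNARE complex. Cplx2 was measured at 1050, 1108 and 1104 CPM in the 15Q libraries, at 949, 976 and 912 CPM in the 84Q libraries and at 1060, 1001 and 770 CPM in the 84Q+IGF1 libraries. The 84Q libraries lay below the 15Q libraries, while the 84Q+IGF1 libraries overlapped them. The log2 fold change was -0.20 in both comparisons with 15Q (SE 0.10 in each, adjusted p = 0.285 in 84Q and 0.304 in 84Q+IGF1). Cplx1 was at 385, 412 and 369 CPM in the 15Q libraries, at 420, 378 and 424 CPM in the 84Q libraries and at 400, 390 and 371 CPM in the 84Q+IGF1 libraries. Its groups overlapped, with a log2 fold change of 0.07 in 84Q (95% interval -0.08 to 0.21). Cplx3, known from the retina, was near 1 CPM, between 0.857 and 1.32 CPM.

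Synaptotagmins and other proteins with C2 domains, most of them calcium sensors, formed a group of 8, of which 0 passed the edgeR test in any comparison, with 1 (Syt12) at an unadjusted p under 0.05 and 0 by DESeq2. Rph3a, encoding rabphilin, an effector of Rab3, stood at 634, 666 and 601 CPM in the 15Q libraries, at 579, 605 and 619 CPM in the 84Q libraries and at 637, 645 and 637 CPM in the 84Q+IGF1 libraries. The 84Q+IGF1 libraries lay above the 84Q libraries, with a log2 fold change of 0.09 (SE 0.06, adjusted p = 0.969), and both overlapped the 15Q libraries. Syt1 and Syt2, the sensors for fast release, were present at similar levels, Syt2 making up between 52.1% and 57.8% of the TPM of the pair. Syt1 had a log2 fold change of -0.11 in 84Q (95% interval -0.25 to 0.02) and Syt2 of 0.05 (95% interval -0.09 to 0.19).

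The slower sensor Syt7 ranged from 414 to 506 CPM, Syt11 from 439 to 499.9 CPM and Doc2b, a sensor of spontaneous release, from 101 to 130 CPM, with overlapping groups for each in every comparison. Syt11 and Syt12 are synaptotagmins that do not bind calcium through their C2 domains. A930001C03Rik overlaps 17.2% of the exon length of Syt12 on the opposite strand. Syt12 had a log2 fold change of 0.19 in 84Q+IGF1 against 15Q (SE 0.08, adjusted p = 0.235), and its adjusted p was 0.0497 without 84Q+IGF1 replicate 3. Doc2a had between 0 and 27 counts per library and shares 39.4% of its exon length with Ino80e on the opposite strand. Its log2 fold change of -1.29 in 84Q+IGF1 against 15Q (95% interval -2.69 to 0.12) rested on 0, 12 and 3 counts in the 84Q+IGF1 libraries. Without 84Q+IGF1 replicate 2 its adjusted p was 0.0747, with a log2 fold change of -2.95, so that Doc2a then passed the study's threshold.

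Synapsins tether vesicles in the reserve pool. Syn1, on the X chromosome, was at 330.0, 311 and 282 CPM in the 15Q libraries, at 308, 325 and 339 CPM in the 84Q libraries and at 351, 325 and 284 CPM in the 84Q+IGF1 libraries. The groups overlapped, with a log2 fold change of 0.07 in 84Q (95% interval -0.11 to 0.26). Syn2 ranged from 206 to 272 CPM and Syn3 from 12.8 to 19.4 CPM, and Syn1 supplied between 69.7% and 74.4% of the TPM of the 3 genes. Timp3 overlaps 14.1% of the exon length of Syn3 on the opposite strand.

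Rab3 GTPases mark vesicles for docking. Rab3a stood at 330.3, 305 and 280 CPM in the 15Q libraries, at 325, 336 and 353 CPM in the 84Q libraries and at 343, 319 and 297 CPM in the 84Q+IGF1 libraries. The groups overlapped, and the log2 fold change in 84Q was 0.15 (SE 0.07, adjusted p = 0.308). Rab3c pointed the other way, with a log2 fold change of -0.24 in 84Q (SE 0.10, adjusted p = 0.22) and with 84Q libraries between 170 and 221 CPM below 15Q libraries between 226 and 253 CPM.

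Of the scaffold and priming genes beside the Munc13 genes, none passed the test. Pclo encodes piccolo, and it ranged from 357 to 499.5 CPM in the 15Q libraries and from 266 to 373 CPM in the 84Q libraries. Its log2 fold change in 84Q was -0.34 (SE 0.14, adjusted p = 0.203). Bsn, encoding the related scaffold bassoon, overlapped between groups, with a log2 fold change of -0.11 (95% interval -0.33 to 0.11). Rims1, Rims2 and Rims3, which link Rab3 and calcium channels to the active zone, had log2 fold changes of -0.07, -0.14 and -0.04 in 84Q against 15Q. Cadps and Cadps2 encode CAPS proteins of dense core vesicle release, and Cadps2 had a log2 fold change of 0.17 in 84Q+IGF1 against 15Q (SE 0.08, adjusted p = 0.271).

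Slc17a6 (ENSMUSG00000030500.6, chromosome 7, 51622006 to 51671119) encodes VGLUT2, which loads glutamate into vesicles and in the cerebellum is typical of climbing fiber terminals and of neurons of the deep nuclei. It stood at 21.5, 18.0 and 18.5 CPM in the 15Q libraries, at 26.8, 17.7 and 12.5 CPM in the 84Q libraries and at 0.729, 16.4 and 15.9 CPM in the 84Q+IGF1 libraries. Only 17 counts were found in 84Q+IGF1 replicate 1, and in CPM it lay 17.1-fold below the lowest of the other 8 libraries. The 84Q+IGF1 libraries lay below all 15Q libraries, and the 84Q libraries overlapped both groups. The log2 fold change in 84Q+IGF1 against 15Q was -0.79 (SE 0.59, adjusted p = 0.508), and without this library it was -0.26 (adjusted p = 0.704).

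Of the 40 genes, 4 had their lowest level in 84Q+IGF1 replicate 1, among them Slc17a6 and Doc2a, the latter with 0 counts. Of 12648 genes above 3 CPM in each of the other 8 libraries, 2 lay at least 4-fold below all of them in this library, Slc17a6 and Meis2, a transcription factor gene, and between 0 and 1 gene did so in each of the other libraries. Meis2 was at 0.686 CPM there and between 4.28 and 10.8 CPM elsewhere, and it was named after its values were seen. In this library the summed level of 19 markers of brainstem and midbrain neurons was 8.45 CPM, against 11.0 to 19.3 CPM in the others, with 15 of these markers at 0 in at least 1 library. The summed level of 10 oligodendrocyte markers was 3158 CPM there, against 3910.3 to 5182 CPM. This library was also lowest for astrocyte and Bergmann glia (4363 CPM), vascular and meningeal (399 CPM) and choroid plexus markers (30.1 CPM). It was highest for granule cell (8140 CPM) and unipolar brush cell markers (735 CPM). For Purkinje cell, interneuron, forebrain and microglial markers it lay within the range of the other libraries. The part of cell composition in this result was not tested. Slc17a7, encoding VGLUT1 of granule cells, was at 435 CPM in this library and between 335 and 416 CPM in the others.

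Fold changes of the 40 genes were also set against the length of the gene from its first to its last base, which ranged from 3.9 kb for Vamp2 to 577 kb for Cadps2. Across genes, which are not independent replicates, Spearman's rho between log2 fold change and length was -0.39 in 84Q against 15Q, -0.15 in 84Q+IGF1 against 15Q and 0.54 in 84Q+IGF1 against 84Q. Over all 19321 genes tested that have a length, rho was -0.12, -0.12 and 0.02, in the same order. Among genes with a mean of at least 100 CPM it was -0.49, -0.29 and 0.50 for the 32 members at that level and -0.47, -0.37 and 0.33 for all 2476 genes. These values share libraries and depth between comparisons.

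**Figure D4:**
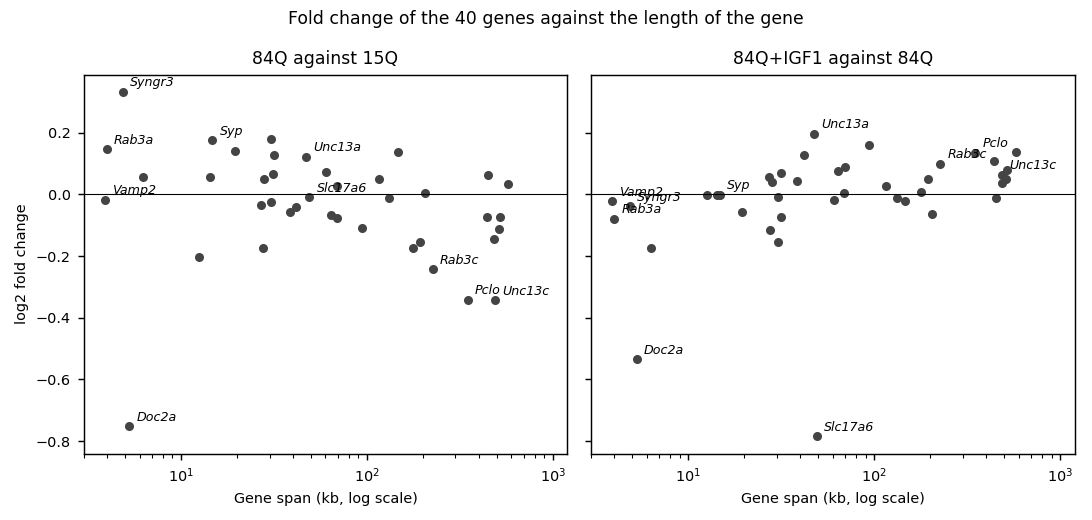
The log2 fold change of each of the 40 genes in 84Q against 15Q (left) and in 84Q+IGF1 against 84Q (right) against the length of the gene in kb on a log scale, with 1 point per gene. Points tend downward with length on the left (rho = -0.39) and upward on the right (rho = 0.54), with Doc2a far below the rest in both panels and Slc17a6 in the right one.

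Other genes of the vesicle cycle were counted in 6 lists with 106 genes, of which 102 were tested. In 84Q against 15Q, 4 were called higher and 1 lower at an adjusted p under 0.1, in 84Q+IGF1 against 15Q 4 higher and 0 lower, in 84Q+IGF1 against 84Q 0 (1 at an unadjusted p under 0.05), and in both groups against 15Q 10 higher and 1 lower. The shares of all genes given above for each direction apply here as well. At an unadjusted p under 0.05 there were 22, 18, 1 and 24 of the 102, against the 19.4%, 17.7%, 4.68% and 22.6% of all genes. DESeq2 called 11, 6, 0 and 16 of them, where it called 6.3%, 5.24%, 0.0185% and 9.19% of all genes. The lists of other synaptotagmins and calcium sensors (12 genes tested) and of other active zone and priming proteins (15 tested) held 0 genes called by edgeR or DESeq2 in any comparison, and 1 in all at an unadjusted p under 0.05, in 84Q against 15Q. Among 17 tested SNAREs and SNARE-binding proteins, Snap47, a relative of Snap25, was upregulated from 132 ± 9.11 CPM in 15Q to 158 ± 5.52 CPM in 84Q (log2 fold change 0.26, adjusted p = 0.0513) and 155 ± 5.61 CPM in 84Q+IGF1 (log2 fold change 0.23, adjusted p = 0.0804). Stxbp5l, encoding tomosyn-2, an inhibitor of SNARE assembly, was downregulated from 47.7 ± 16.8 CPM in 15Q to 23.0 ± 5.35 CPM in 84Q (log2 fold change -1.05, adjusted p = 0.0869) and was the only gene of the 6 lists that had both an adjusted p under 0.1 and a change of at least 1.5-fold in this comparison.

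Among 17 tested vesicle proteins and transporters, Synpr, encoding synaptoporin of the synaptophysin family, rose from 46.8 ± 4.98 CPM in 15Q to 57.0 ± 2.56 CPM in 84Q (log2 fold change 0.28, adjusted p = 0.0821) and 59.9 ± 1.37 CPM in 84Q+IGF1 (log2 fold change 0.36, adjusted p = 0.0355). Slc32a1, the vesicular GABA transporter, and Svop were higher when both groups were compared with 15Q, with log2 fold changes of 0.29 (adjusted p = 0.082) and 0.17 (adjusted p = 0.0954). In the endocytosis list, 1 of 25 genes was called, Clta, a clathrin light chain, with log2 fold changes of 0.26 in 84Q (adjusted p = 0.0726) and 0.25 in 84Q+IGF1 (adjusted p = 0.0869).

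The vacuolar proton pump acidifies vesicles so that transmitter can be loaded. All 16 of its tested genes had a positive log2 fold change in 84Q and in 84Q+IGF1 against 15Q, with medians of 0.15 and 0.13, and 6 of 16 were positive in 84Q+IGF1 against 84Q. Over all genes tested, 49.7%, 48.9% and 48.7% had a positive value in these comparisons. Atp6v0d1 was called in each comparison with 15Q, with log2 fold changes of 0.30 (adjusted p = 0.0343) and 0.28 (adjusted p = 0.0421). With both groups together, 5 of 16 were called higher, against 3.64% of all genes, among them Atp6ap1 (0.17, adjusted p = 0.0821), Atp6v1e1 (0.20, adjusted p = 0.0873) and Atp6v0b (0.19, adjusted p = 0.0524), besides Atp6v0d1 and Atp6v1g1, which was named after its values were seen. Most of these calls were lost when some single libraries were left out. None of the 5 genes of the 6 lists called in 84Q against 15Q was called without 15Q replicate 2, without 15Q replicate 3 or without 84Q replicate 3. Those omissions called 1.06%, 1.13% and 1.63% of all genes, in the same order, against 4.80% with all 9 libraries. None of the 4 called in 84Q+IGF1 against 15Q was called without 15Q replicate 2 or without 84Q+IGF1 replicate 1. There the shares of all genes were 1.37% and 1.71%, against 3.67% with all 9 libraries. With both groups together, the calls of Synpr and Atp6v0d1 were kept whichever 1 of the 9 libraries was left out.

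Of the marker lists of other cells, some differed between groups and others overlapped. The summed level of the 12 vascular and meningeal markers was between 483 and 505 CPM in 15Q, between 423 and 446 CPM in 84Q and between 399 and 453 CPM in 84Q+IGF1. That of the 10 oligodendrocyte markers was between 4202 and 4524 CPM in 15Q, between 4130 and 5182 CPM in 84Q and between 3158 and 4148 CPM in 84Q+IGF1. That of the 8 microglial markers was between 159 and 193 CPM in 15Q, between 194 and 237 CPM in 84Q and between 170.2 and 186 CPM in 84Q+IGF1. That of the 10 astrocyte and Bergmann glia markers overlapped between all groups, from 4571 to 5224 CPM in 15Q, from 4710.1 to 5088 CPM in 84Q and from 4363 to 5273 CPM in 84Q+IGF1. In 84Q against 15Q, 1.54% of all genes were called higher and 3.25% lower. Of 11 Purkinje cell markers, 2 were called higher there and 0 lower, with 8 positive values and a median log2 fold change of 0.05. These were Pcp2 (0.34, adjusted p = 0.0936) and Slc1a6 (0.34, adjusted p = 0.0643). Against the same shares of all genes, 1 of 10 interneuron markers was called higher, Pvalb (0.25, adjusted p = 0.0876), and 1 lower, Tfap2b (-0.25, adjusted p = 0.0898). These 10 markers had 4 positive values and a median of -0.09. With both groups against 15Q, 3.64% of all genes were called higher and 6.11% lower. Of 10 astrocyte and Bergmann glia markers, 0 were called higher there and 3 lower, with 3 positive values, a median of -0.12 and a range from -0.36 to 0.40. The 3 were Slc1a2 (-0.32, adjusted p = 0.0661), Aqp4 (-0.23, adjusted p = 0.0538) and Gdf10 (-0.36, adjusted p = 0.0727). In that comparison 5 of 12 vascular and meningeal, 3 of 10 oligodendrocyte and 1 of 12 choroid plexus markers were called lower, and 0 higher. Of 8 microglial markers, 2 were called higher and 0 lower. The part of these cell types in the differences of the vesicle genes was not tested.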

How the data were processed

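Cerebellar RNA was sequenced as strand-specific paired-end libraries. According to the labels and the study's methods, the authors trimmed reads with Trimmomatic 0.36, aligned them with HISAT2 2.2.0 to GRCm38.p6 and counted them per gene with featureCounts, and the deposited values are raw counts. The version, annotation and strand setting of the counting are not given in the sources used here. Counts were fitted with edgeR 4.0.16 (R 4.3.3) over all 9 libraries, with TMM factors, filterByExpr and the two-sided quasi-likelihood test. Adjusted p-values are Benjamini-Hochberg values over all genes tested, and intervals are the log2 fold change with its standard error times the t quantile. The method was tested on simulated data. TPM used merged exon lengths of GENCODE M21.

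Groups were taken from the titles. Members and lists were chosen with earlier results of these data known. Values by library are given for members with an adjusted p under 0.1 and for the 8 with the highest TPM, besides Unc13c, Slc17a6 and other members chosen after their values were seen. Up to 3 called genes per other list and direction are named. Alternatives were DESeq2 1.42.0, its size factors, no filter on low counts, robust shrinkage, a replicate block, Xist or choroid plexus markers as covariates, the compared groups alone, an adjusted p under 0.05 and leaving out each library. The joint omission of the 3 libraries with choroid plexus markers was chosen after seeing the data.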

Additional observations from a re-analysis of the deposited data

How the results depend on the processing

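Of the 2839 recomputed values of single members, 2776 kept their direction and side of the threshold or were uncalled with another sign, 35 passed the threshold newly and 28 lost it, and no called value changed sign. Members with an adjusted p under 0.1 at any fold change were counted in each setting. DESeq2 gave 3 members in 84Q and 3 in 84Q+IGF1 against 15Q. It called 6.30% and 5.24% of all genes to which it gave an adjusted p. Among those with enough counts for the edgeR test, the shares were 7.25% and 5.95%. Without a filter on low counts there were 5 and 6 members, with 1 in 84Q+IGF1 against 84Q and 9 over both 84Q groups. That setting called 6.50%, 6.25%, 0.701% and 9.18% of all 37816 genes, and 11.1%, 10.3%, 1.26% and 15.0% of the 19353 genes with enough counts, taken in the order 84Q and 84Q+IGF1 against 15Q, 84Q+IGF1 against 84Q and both groups. Unfiltered, Slc17a6 passed the threshold with the 1.5-fold minimum, so that 1 member did so in 84Q+IGF1 against 15Q (adjusted p = 3.63e-10) and 1 against 84Q (adjusted p = 6.18e-09), and the cause was not tested. In 84Q+IGF1 against 15Q, the choroid plexus covariate gave 0, the omission of the 3 libraries with these markers 0 and the compared groups alone 2, where 1.32%, 0.944% and 5.20% of all genes were called. Over both 84Q groups, the choroid plexus covariate gave 0, that omission 0, the Xist covariate 1 (2.19%, 1.20% and 4.36% of all genes) and an adjusted p under 0.05 gave 0. The summed level in 84Q over 15Q was 0.967 in TPM and 0.989 in CPM with DESeq2 size factors.

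Leaving out each library in turn gave 0 to 1 members in 84Q against 15Q, 0 to 2 in 84Q+IGF1 against 15Q and 0 to 4 over both groups at any fold change, where between 1.06% and 6.83%, between 1.32% and 5.51% and between 1.78% and 11.6% of all genes were called. With the 1.5-fold minimum it gave 0 to 1 in 84Q+IGF1 against 15Q and 0 to 1 over both groups, the 1 being Doc2a without 84Q+IGF1 replicate 2. The median log2 fold change over both groups ranged from -0.0248 to 0.00864.

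The labels do not say whether replicate numbers pair the libraries, and the main fit did not pair them. Deviations of same-numbered libraries from their group means correlated between -0.311 and 0.072, and not every library correlated best with its own number. With 3 libraries in each group, these values cannot decide whether libraries were paired. With the replicate number as a block, 0 members passed in 84Q+IGF1 against 15Q and 0 over both groups, where 1.68% and 4.51% of all genes did. Intervals were wide for Doc2a, with 0 to 27 counts per library, and for Stx1a, with 19 to 143.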

Other observations

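Within the complexins, Cplx1 supplied between 42.9% and 45.5% of the TPM of the 3 genes in the 15Q libraries, between 46.5% and 51.1% in the 84Q libraries and between 45.9% and 52.0% in the 84Q+IGF1 libraries. The 15Q libraries lay below the other 6. Napa supplied between 49.8% and 51.4% of the TPM of the pair Napa and Napb in the 15Q libraries and between 52.8% and 54.5% in the 84Q libraries, while the 84Q+IGF1 libraries ranged from 46.9% to 56.2%. These shares were chosen after the values were seen and were not tested. By library, 84Q replicate 3 held the highest level of 8 members and the lowest of 9, and 15Q replicate 3 held the highest of 6 and the lowest of 10.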
